A study of Mus musculus with 20 samples.

Results

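Extracellular matrix and matrix protease genes were followed in the kidney cortex of mice after acute injury. The set holds 71 of the 6025 genes in the deposited expression table, and its members were taken by symbol: collagens, fibronectin, metalloproteinases (MMPs) and their tissue inhibitors (TIMPs), the ADAMTS family, lysyl oxidases, fibrillins, fibulins, thrombospondins, tenascin-C, versican, SPARC proteins, CCN proteins and the plasminogen activation genes. The rule for members uses gene symbols and no measured value, but the set was proposed with earlier results of these data known, and the table is itself a selection. Each of its genes, members included, differed at least 1.5-fold from the mean of the 8 controls in at least 1 injury. A member therefore had to differ somewhere, and the counts describe direction, size and spread between injuries rather than whether matrix genes responded. All mice were 8-week-old wild-type C57BL/6 animals (C57BL/6J in the protocol), with 4 taken 24 h after ischemia-reperfusion injury (IRI, in which blood flow to the kidney is stopped and restored), 4 taken 24 h after rhabdomyolysis (muscle breakdown that loads the kidney with myoglobin) and 4 taken 72 h after the chemotherapy drug cisplatin. The 8 controls are labelled mock, and the series text calls the same 8 mock and vehicle without saying which mouse is which. Doses, ischemia time, sex and the agent that caused rhabdomyolysis are not given in the sources used here.

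The extracellular matrix is the protein mesh around and between cells. Fibrillar collagens form its tensile fibres, type IV collagen forms the sheet of the basement membrane under tubules and glomerular capillaries, and glycoproteins such as fibronectin and tenascin-C join these networks to cells. Lysyl oxidases crosslink the fibres. MMPs and ADAMTS proteases cut matrix proteins, TIMPs block them, and plasmin, made from plasminogen by tissue-type or urokinase-type activator, degrades fibrin and activates some MMPs. In the kidney, matrix genes are known for rising after acute injury and for staying high where repair ends in fibrosis.

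RNA was measured by poly-A sequencing, and the values are counts per 1000000 (CPM) of an effective library size. Reads in the table numbered 3.48 to 5.40 M (units of 1000000) per library. Library identifiers in the labels fall in 2 ranges, so IRI was set against controls 1 to 4, while rhabdomyolysis and cisplatin were set against controls 5 to 8. Between the controls of the 2 ranges limma called 0 of 65 members, with 6 at an unadjusted p under 0.05 (9.23%), and 0 of all 5672 genes, with 454 (8.00%). Controls 2 and 3 stood low in many members, and also in the sums of 2 loop of Henle markers (1253 and 1384 CPM, against 1680.0 to 2557 in the other controls), 4 endothelial markers (174 and 229, against 242 to 360.2) and 3 fibroblast markers (30.97 and 31.7, against 40.5 to 73.6). The part of these cells in the low values was not tested. Counts that move without controls 2 and 3 are given as such, as are single results of the members picked by the naming rule. Other members were not recomputed singly, and some IRI calls not named as lost did not hold without these controls. The cortex label was checked against 8 proximal tubule markers, which summed to 17121 to 24840.0 CPM in controls. Differences were tested with limma on log2(CPM + 1) over the 5672 genes whose mean reached 1 CPM, at a Benjamini-Hochberg adjusted p under 0.05. Adding 1 CPM shrinks the log2 difference of a low gene, so its size is understated and folds are given beside it as ratios of group means. The series text calls the mice biological replicates. The tissue was sequenced in bulk, so fewer cells of a type and less RNA per cell cannot be told apart.

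Of the 71 members 65 passed the level needed for testing. In IRI 46 rose and 7 fell, where 40.6% of all tested genes rose and 40.1% fell. After rhabdomyolysis 55 rose and 10 fell, against 48.8% and 46.5% of all genes. Cisplatin raised 47 and lowered 9, against 47.8% and 44.0%. The median log2 difference of the members was 1.06 in IRI, 1.85 in rhabdomyolysis and 1.33 in cisplatin, while over all genes it was 0.08, 0.31 and 0.30. With Mmp10, which had 0 control reads, at its lower bound the IRI median was 1.08. These 3 comparisons are not independent, because rhabdomyolysis and cisplatin share their controls. In all 3 injuries 40 members rose (35.3% of all genes did) and 6 fell (36.9% of all genes did), the 6 being Col23a1, Col4a4, Fbln5, Fbln7, Mmp11 and Timp3 (the last with positive differences in IRI and cisplatin under quantile normalization). No member rose in 1 injury and fell in another, and the remaining 19 were called in some injuries only. The shares of all genes in these classes were not counted, so neither count is read as a trait of matrix genes. Without controls 2 and 3, chosen after seeing the data, IRI counted 33 higher and 9 lower, and 32 rose and 8 fell in all 3 injuries. All 4 injured mice lay above their 4 controls for 43 members in IRI (34.4% of all genes), 47 after rhabdomyolysis (44.7%) and 43 after cisplatin (44.4%). They lay below them for 6 members in IRI (35.4%), 9 after rhabdomyolysis (44.4%) and 9 after cisplatin (41.4%).

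**Figure D1:**
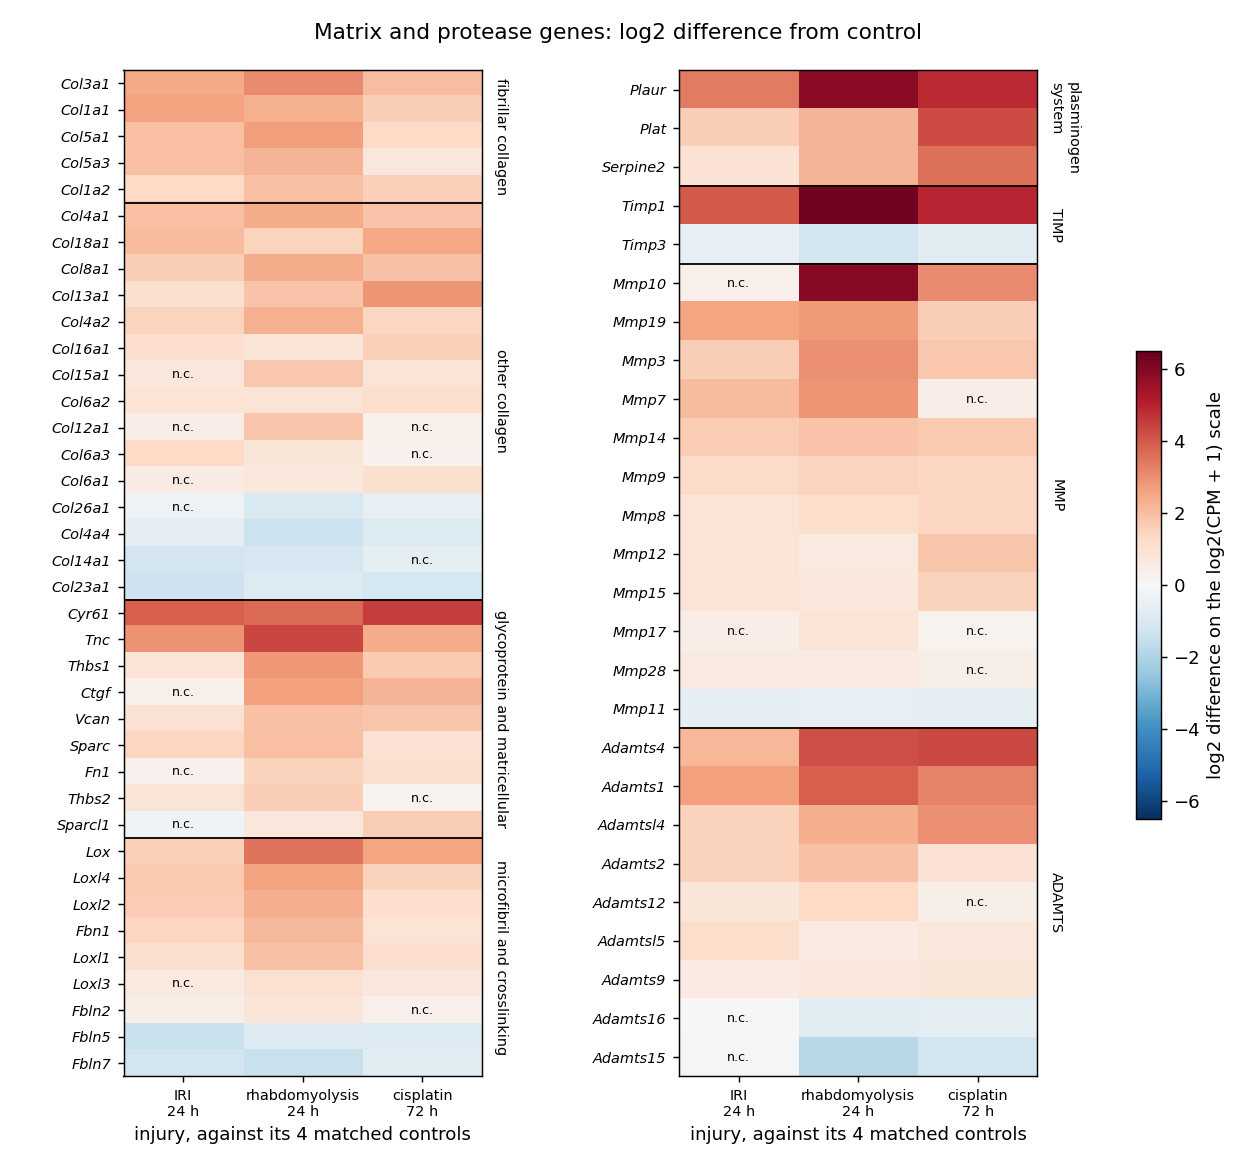
Log2 differences of 64 of the 65 tested matrix and protease genes from their matched controls in the 3 injuries, on the log2(CPM + 1) scale, grouped by role; red is higher, blue is lower and n.c. marks a difference that limma did not call. Rows are mostly red: of all 65 genes 46, 55 and 47 were called higher in IRI, rhabdomyolysis and cisplatin; the blue Timp3 row turns to small positive differences under quantile normalization in IRI (0.29) and cisplatin (0.10).

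Per kilobase of exon, Timp3 was the most abundant member in controls, at 337 ± 53.3 CPM per kb (SD, n = 8). Sparc, which encodes a collagen-binding matricellular protein, came next at 46.9 ± 8.90, followed by Col4a1 at 24.8 ± 7.50. The levels of Col4a1, Fbln5, Col18a1, Col4a2, Col4a4 and Ctgf, which came after Sparc, lay within their spreads of each other. After rhabdomyolysis Sparc at 193 ± 52.9 CPM per kb (SD, n = 4), Timp3 at 158 ± 41.8, Col4a1 at 146 ± 18.4 and Timp1 at 130.4 ± 76.01 stood at the top, with spreads that overlapped. After cisplatin the order began with Timp3 at 214 ± 16.7, Cyr61 at 138 ± 20.4, Col18a1 at 123 ± 13.8 and Plat at 107 ± 41.5. Below Timp3 the spreads overlapped, also with Col4a1 at 101 ± 18.6 and Sparc at 94.2 ± 16.8, which came next. In IRI the order began with Timp3 at 222 ± 30.6, Sparc at 115 ± 1.43 and Col4a1 at 79.1 ± 6.85.

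The fibrillar collagens rose together: all 5 tested members (Col1a1, Col1a2, Col3a1, Col5a1 and Col5a3) were called higher in each injury, with median log2 differences of 1.95, 2.33 and 1.53 in IRI, rhabdomyolysis and cisplatin. Col3a1, the chain of type III collagen, measured 12.3 to 42.00 CPM in the 8 controls, with a median of 30.7. In IRI mice it was 163, 159, 153 and 109 CPM, and after rhabdomyolysis 461, 244, 423 and 104. Cisplatin mice had 134, 241, 125 and 59.8. All 12 injured mice lay above all 8 controls, and the fourth mouse of the rhabdomyolysis and of the cisplatin group was the lowest of its group. Mean Col3a1 was 5.13-fold, 10.01-fold and 4.54-fold the matched control mean, with log2 differences of 2.48, 3.09 and 2.01 (SE 0.42 each; limma adjusted p 2.01e-05, 4.7e-07 and 0.00015). Col1a1, the main chain of type I collagen, ran at 7.23 to 21.7 CPM in the 8 controls, with a median of 18.4. It reached 89.03, 86.04, 93.7 and 60.6 CPM in IRI. Rhabdomyolysis mice ranged widely at 151, 80.97, 146 and 35.9, and cisplatin mice had 55.7, 94.3, 51.8 and 31.3. Injured mice and controls did not overlap, but the 3 injured groups overlapped each other. The folds were 6.22-fold, 5.85-fold and 3.29-fold, with log2 differences of 2.63, 2.33 and 1.62 (SE 0.38 each; limma adjusted p 2.82e-06, 6.21e-06 and 0.000512). Col5a1, a chain of the type V collagen that starts fibril assembly, lay at 3.66 to 9.78 CPM in the 8 controls, with a median of 6.40. It rose to 26.1, 30.1, 26.5 and 23.7 CPM in IRI and to 81.1, 56.8, 64.4 and 19.6 after rhabdomyolysis. Cisplatin gave 19.96, 28.1, 16.3 and 10.2, the smallest rise of the 3 by mean at 2.78-fold, and no injured mouse reached down to a control. Its log2 differences were 1.95, 2.71 and 1.27 (SE 0.34 each; limma adjusted p 2.94e-05, 1.49e-07 and 0.0016).

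Among the other collagens, 8 rose and 3 fell in IRI of 15 tested, 11 and 4 after rhabdomyolysis, and 9 and 3 after cisplatin. The shares that rose were 53.3%, 73.3% and 60.00%, beside 40.6%, 48.8% and 47.8% of all genes, which are the background for every role group. The basement membrane chains went opposite ways. Col4a1, the common type IV chain, measured 92.5 to 254 CPM in the 8 controls, with a median of 197. It was 546, 606, 555 and 656 CPM in IRI, 1289, 1056, 1014 and 988 after rhabdomyolysis and 720.5, 915, 802 and 586 after cisplatin. All 12 injured mice exceeded every control, with log2 differences of 1.94, 2.40 and 1.87 (SE 0.22 each; limma adjusted p 6.39e-08, 7.01e-10 and 6.32e-08). Its partner Col4a2 rose alongside, by log2 differences of 1.45, 2.32 and 1.38. The genes lie head to head on chromosome 8 (Col4a1 at chr8:11198423-11312826, minus strand, and Col4a2 at chr8:11312805-11449287, plus strand, GRCm38), and their annotations overlap by 22 bases. Col4a4, a chain of the mature glomerular basement membrane, went down: controls spanned 110.2 to 237 CPM (median 204, n = 8), against 106, 101, 110.0 and 105 CPM in IRI. Levels were 73.1, 85.6, 60.6 and 91.6 after rhabdomyolysis and 128, 93.2, 107 and 118 after cisplatin. IRI and rhabdomyolysis mice lay below all controls, and cisplatin mice below controls 5 to 8 only, with log2 differences of -0.59, -1.41 and -0.89 (SE 0.17 each; limma adjusted p 0.00314, 6.24e-08 and 4.51e-05). Per kilobase the Col4a4 to Col4a1 ratio was 0.732 ± 0.108 in controls (SD, n = 8), 0.127 ± 0.0135 in IRI, 0.0510 ± 0.0121 after rhabdomyolysis and 0.108 ± 0.0313 after cisplatin (SD, n = 4), a ratio chosen after its values were seen. Of the podocyte markers 2 of 7, Podxl and Synpo, are in the table; they summed to 166 to 464 CPM in controls, 471 to 596 in IRI, 628 to 913 after rhabdomyolysis and 502 to 616 after cisplatin. All injured sums lay above all control sums, in the opposite direction to Col4a4, and limma called 2 markers higher in IRI, 1 after rhabdomyolysis and 1 after cisplatin. Their part in the ratio was not tested.

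Col18a1, a basement membrane proteoglycan whose C-terminal piece is endostatin, measured 82.9 to 168 CPM in the 8 controls, with a median of 149.6. IRI mice had 506, 508, 493 and 500.4 CPM, rhabdomyolysis mice 432, 433, 409 and 391 and cisplatin mice 813, 930.5, 965 and 758. The 4 groups did not overlap, and the order was controls, rhabdomyolysis, IRI and cisplatin, with log2 differences of 2.06, 1.46 and 2.51 (SE 0.16 each; limma adjusted p 3.95e-10, 2.52e-08 and 7.04e-12). Col13a1, a transmembrane collagen of cell-matrix junctions, was low at 0.563 to 2.15 CPM in the 8 controls, with a median of 1.24. It measured 3.15, 4.13, 3.21 and 4.69 CPM in IRI and 15.2, 17.6, 18.99 and 13.1 after cisplatin. Rhabdomyolysis mice had 7.00, 4.24, 3.99 and 22.5, so that the fourth mouse stood well above the other 3. No injured mouse overlapped a control, with log2 differences of 1.06, 1.85 and 2.87 (SE 0.33 each; limma adjusted p 0.00613, 1.83e-05 and 5.72e-08), but the IRI call was lost when controls 2 and 3 were left out (0.70). Col8a1, a short-chain collagen of vessel walls, lay at 4.79 to 10.8 CPM in the 8 controls, with a median of 7.15. It was 25.3, 24.9, 20.2 and 27.2 CPM in IRI, 67.8, 48.9, 53.8 and 23.05 after rhabdomyolysis and 31.5, 35.4, 36.8 and 25.5 after cisplatin. All injured mice lay above the controls, and the means rose 3.27-fold, 6.22-fold and 4.15-fold with log2 differences of 1.62, 2.41 and 1.92 (SE 0.24 each; limma adjusted p 3.93e-06, 4.37e-09 and 2.27e-07). Col23a1, another transmembrane collagen, fell in all injuries by 1.37, 0.91 and 1.15 on the log2 scale, and no injured mouse overlapped a control.

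Of the 9 glycoprotein and matricellular genes 6 rose in IRI, 9 after rhabdomyolysis and 8 after cisplatin, and 0 fell. Cyr61 (also named Ccn1), a secreted early response protein that binds integrins, ran at 6.62 to 16.96 CPM in the 8 controls, with a median of 10.1. It was 146, 124, 149.7 and 153 CPM in IRI, 171, 132, 155 and 174 after rhabdomyolysis and 248, 314, 237 and 312 after cisplatin. Every injured mouse lay above every control, and cisplatin mice lay above the mice of the other injuries. The folds were 15.8-fold, 13.4-fold and 23.6-fold, with log2 differences of 3.88, 3.67 and 4.47 (SE 0.18 each; limma adjusted p 7.41e-14, 4.01e-14 and 1.93e-15). Its relative Ctgf (Ccn2), which promotes matrix production, measured 28.7 to 71.6 CPM in the 8 controls, with a median of 43.1. IRI mice had 40.9, 39.3, 41.4 and 100.4 CPM, so 3 of them lay inside the control range and the fourth above it. Rhabdomyolysis mice reached 524, 237, 292 and 368 and cisplatin mice 224, 269, 306 and 188, far above all controls. Limma called the last 2 differences (2.69 and 2.20, SE 0.29 each, adjusted p 1.48e-08 and 4.68e-07) but not that of IRI (0.32, adjusted p 0.305), which turned slightly negative without controls 2 and 3 (-0.01).

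Tnc encodes tenascin-C, a glycoprotein made mostly in wounds and development, and it was low in controls at 0.282 to 1.98 CPM (median 1.18, n = 8). It rose to 8.79, 12.8, 15.5 and 12.01 CPM in IRI. Levels were 70.8, 37.7, 72.2 and 26.7 after rhabdomyolysis and 8.52, 27.4, 15.3 and 4.84 after cisplatin. All 12 injured mice exceeded the controls, and all rhabdomyolysis mice exceeded all IRI mice. Mean Tnc was 15.7-fold, 36.3-fold and 9.81-fold the control mean, with log2 differences of 2.91, 4.34 and 2.40 (SE 0.36 each; limma adjusted p 3.11e-07, 1.97e-10 and 2.65e-06). Thbs1, for thrombospondin-1, an activator of latent TGF-beta, ran at 20.6 to 47.5 CPM in the 8 controls, with a median of 39.4. IRI mice had 45.9, 59.3, 56.4 and 65.5 CPM, rhabdomyolysis mice 385, 229.7, 236 and 291 and cisplatin mice 114, 181, 152 and 99.4. The IRI mice lay above controls 1 to 4 but overlapped controls 5 to 8, while the other injured groups cleared all 8. The log2 differences were 0.88, 2.80 and 1.73 (SE 0.23 each; limma adjusted p 0.00186, 2.31e-10 and 6.5e-07), and that of IRI was no longer called without controls 2 and 3 (0.36). Fn1, for fibronectin, rose after rhabdomyolysis (1.49) and cisplatin (1.06), and in IRI its log2 difference of 0.29 was not called.

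The microfibril and crosslinking group counted 6 higher and 2 lower in IRI of 9, 7 and 2 after rhabdomyolysis, and 6 and 2 after cisplatin, the 2 lower ones being Fbln5 and Fbln7 each time. Lox, which crosslinks collagen and elastin, measured 0.903 to 4.04 CPM in the 8 controls, with a median of 2.07. In IRI it was 7.61, 7.46, 5.97 and 10.4 CPM, after rhabdomyolysis 55.7, 28.2, 34.1 and 27.6 and after cisplatin 18.1, 35.6, 17.99 and 7.17. No injured mouse overlapped a control, and every rhabdomyolysis mouse exceeded every IRI mouse. Folds were 3.52-fold, 17.4-fold and 9.45-fold, with log2 differences of 1.54, 3.54 and 2.56 (SE 0.34 each; limma adjusted p 0.000329, 1.82e-09 and 4.38e-07). Loxl4, a lysyl oxidase relative, lay at 2.06 to 4.12 CPM in the 8 controls, with a median of 2.93. It was 15.1, 8.92, 13.2 and 9.72 CPM in IRI, 25.6, 24.3, 30.1 and 17.8 after rhabdomyolysis and 11.6, 10.6, 9.72 and 9.88 after cisplatin. Rhabdomyolysis stood apart above the other injuries, all above controls, with log2 differences of 1.69, 2.64 and 1.5 (SE 0.20 each; limma adjusted p 1.23e-07, 3.04e-11 and 3.62e-07). Loxl2 also rose in each injury (3.02-fold, 5.46-fold and 2.20-fold by mean), with IRI values of 47.99, 52.2, 42.5 and 35.6 CPM against 7.18 to 22.8 CPM in the 8 controls, with a median of 16.1. Rhabdomyolysis mice had 141, 89.8, 95.9 and 55.2 and cisplatin mice 34.1, 50.7, 41.00 and 28.3, all above the controls. Loxl2 is uncertain, since 43.6% of its 75-base stretches also occur in other annotated genes, Gm21451 and Gm45509 among them. Fbln5, a fibulin needed for elastic fibres, fell by 1.43, 0.85 and 0.87, and 1 rhabdomyolysis mouse overlapped its controls.

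The plasminogen system genes Plaur, Plat and Serpine2 rose in each injury. Plaur, the urokinase receptor, measured 1.07 to 3.90 CPM in the 8 controls, with a median of 2.54. IRI gave 57.3, 33.6, 37.9 and 28.6 CPM, rhabdomyolysis 153, 193, 216 and 194 and cisplatin 85.7, 115, 89.6 and 78.3. The 4 groups did not overlap, in the order controls, IRI, cisplatin and rhabdomyolysis. Mean Plaur rose 13.8-fold, 81.6-fold and 39.8-fold, with log2 differences of 3.36, 5.88 and 4.85 (SE 0.21 each; limma adjusted p 1.08e-11, 2.74e-16 and 7.96e-15).

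Plat encodes tissue-type plasminogen activator and behaved in another order. It ran at 17.7 to 47.6 CPM in the 8 controls, with a median of 32.2. IRI mice had 85.9, 115, 83.1 and 95.3 CPM, rhabdomyolysis mice 176, 131, 138 and 161 and cisplatin mice 441, 835, 945 and 455. Again no groups overlapped, but here cisplatin stood highest, at 20.5-fold against 2.93-fold in IRI and 4.65-fold after rhabdomyolysis, with log2 differences of 1.59, 2.18 and 4.24 (SE 0.24 each; limma adjusted p 4.79e-06, 1.91e-08 and 6.85e-13). Serpine2, protease nexin-1, which inhibits thrombin and the plasminogen activators, lay at 7.34 to 13.3 CPM in the 8 controls, with a median of 8.52. It was 22.4, 15.6, 13.4 and 24.3 CPM in IRI, 59.1, 34.1, 38.3 and 52.2 after rhabdomyolysis and 105, 143, 116 and 101 after cisplatin. Every group stood apart in the order controls, IRI, rhabdomyolysis and cisplatin, with log2 differences of 0.96, 2.23 and 3.57 (SE 0.20 each; limma adjusted p 0.000182, 5.98e-10 and 4.5e-13).

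**Figure D2:**
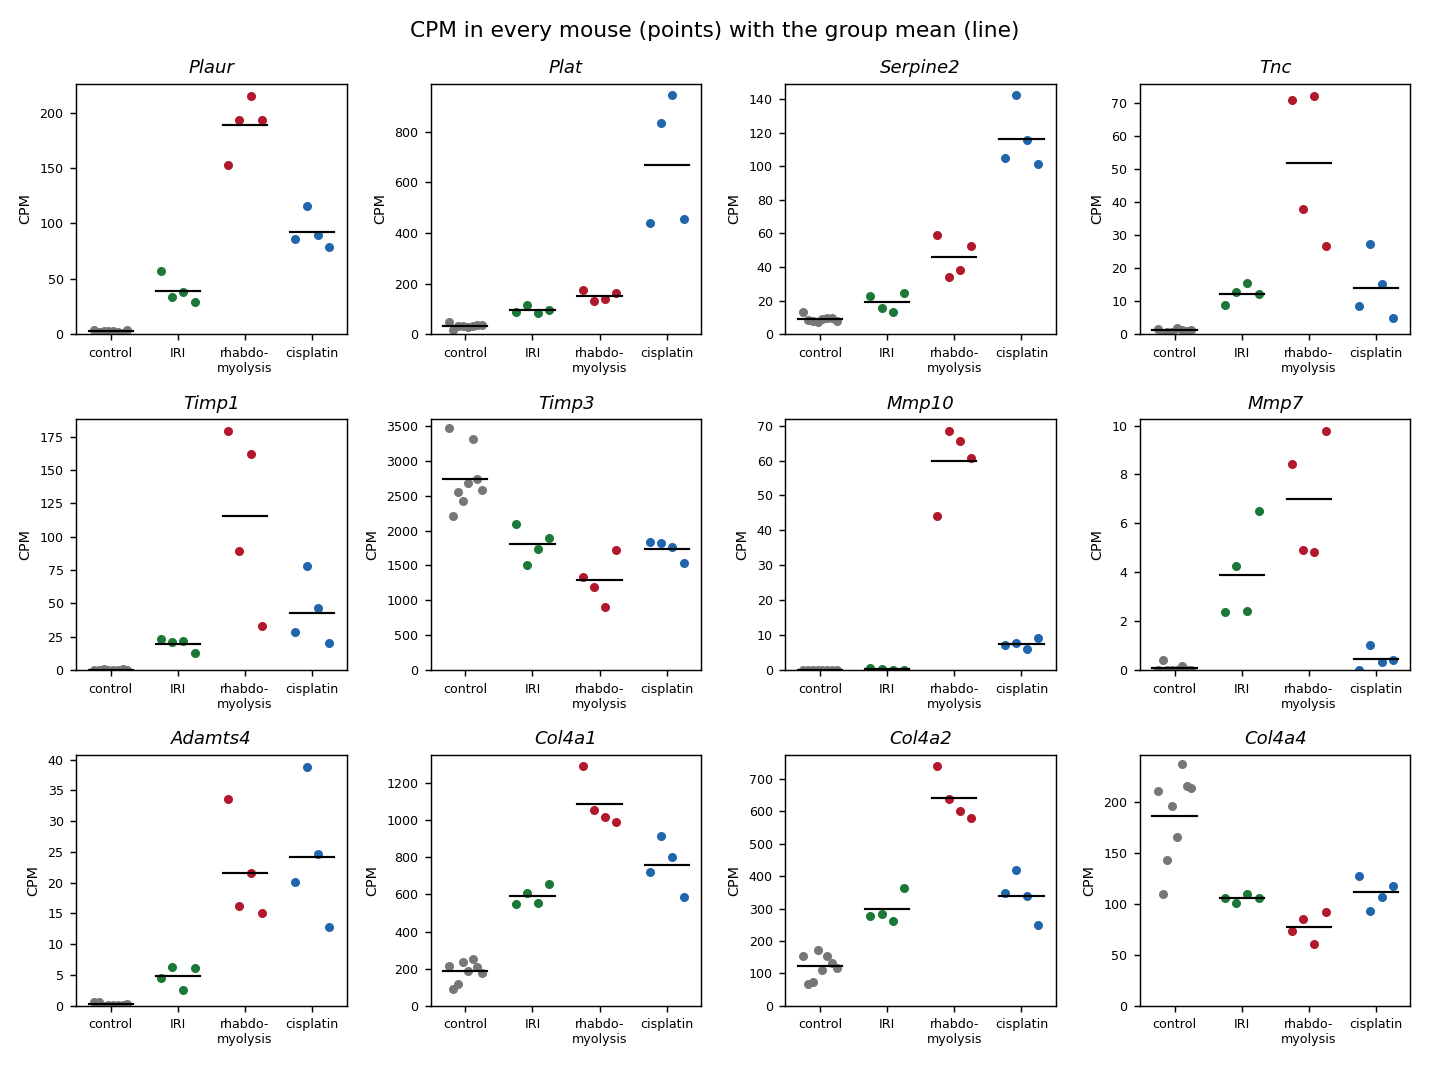
CPM of 12 matrix and protease genes in each mouse, on linear axes that start at 0; each point is 1 mouse of the 8 controls or the 4 mice of an injury, and lines are group means. Plaur and Timp1 rise in every injury, Mmp10 is at 0 reads in all controls and high after rhabdomyolysis, and Col4a4 and Timp3 lie lower in injured mice, although the Timp3 log2 differences turn to 0.29 in IRI and 0.10 in cisplatin under quantile normalization.

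Of the 2 TIMP genes in the table Timp1 rose in each injury, and Timp3 fell as deposited but not under quantile normalization in IRI and cisplatin. Timp1, a secreted MMP inhibitor on chromosome X (chrX:20870166-20874735, GRCm38), was near the detection limit in controls at 0 to 0.534 CPM (median 0.215, n = 8). It measured 23.1, 20.9, 22.04 and 12.9 CPM in IRI, 179, 89.4, 162 and 32.9 after rhabdomyolysis and 28.1, 78.02, 46.1 and 20.05 after cisplatin. Every injured mouse stood far above every control, and the fourth rhabdomyolysis and cisplatin mice were the lowest of their groups. Mean Timp1 rose 73.8-fold, 452-fold and 168-fold over matched controls, which held 8 reads in controls 1 to 4 and 7 in controls 5 to 8, with log2 differences of 4.01, 6.29 and 4.97 (SE 0.40 each; limma adjusted p 1.12e-08, 2.21e-12 and 1.83e-10). Control 7 held 4 of those 7 reads, and without it the folds were 709 after rhabdomyolysis and 264 after cisplatin. Timp3, an inhibitor that binds the matrix and also blocks ADAM proteases, was abundant at 2203 to 3467 CPM in the 8 controls, with a median of 2633. It was 2100.2, 1510.1, 1734 and 1893 CPM in IRI, 1332, 1187, 901 and 1718 after rhabdomyolysis and 1836, 1817, 1766 and 1541 after cisplatin. All injured mice lay below all controls. Its log2 differences of -0.54, -1.17 and -0.70 were called (SE 0.17 each; limma adjusted p 0.00669, 1.37e-06 and 0.000733), but under quantile normalization they became 0.29 in IRI and 0.10 in cisplatin. Reads of Timp3 and of Syn3, which shares exons on the other strand, could not be told apart unless the counting used strand, which the sources used here do not give, and the same holds for Mmp11 with Chchd10. Per kilobase the Timp1 to Timp3 ratio, chosen after its values were seen, was 0.000883 ± 0.000659 in controls (SD, n = 8) and 0.102 ± 0.0282, 0.937 ± 0.641 and 0.223 ± 0.125 in IRI, rhabdomyolysis and cisplatin (SD, n = 4).

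Of 12 tested MMPs 9 rose and 1 fell in IRI, 11 and 1 after rhabdomyolysis and 8 and 1 after cisplatin. In the genome 5 of them, Mmp12, Mmp3, Mmp10, Mmp8 and Mmp7, sit together on chromosome 9 within 355 kb (chr9:7344381-7699585, GRCm38). AP-1, the Fos and Jun dimer induced by stress, binds the letters TGANTCA, which read as their own complement on the other strand, so both strands were searched at once. A search of the 300 bases around RefSeq gene starts (250 before and 50 after; GRCm38.p6) found the letters in 6 of 57 promoters, which belong to the 51 members with an entry (10.5%). They occur in 7.81% of all 32851 promoters. Of 12 MMP promoters 4 held them, all in the chromosome 9 cluster. The 100 bases before the start are shown for every match whose window overlaps no annotated exon, which are these 4 genes and Plaur. Capitals mark the letters.

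Mmp12, chr9:7347274-7347373, plus strand: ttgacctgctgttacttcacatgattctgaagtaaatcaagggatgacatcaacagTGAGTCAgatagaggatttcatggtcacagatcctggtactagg
Mmp3, chr9:7445722-7445821, plus strand: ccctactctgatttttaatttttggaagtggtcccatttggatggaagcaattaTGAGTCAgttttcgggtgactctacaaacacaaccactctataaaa
Mmp10, chr9:7502242-7502341, plus strand: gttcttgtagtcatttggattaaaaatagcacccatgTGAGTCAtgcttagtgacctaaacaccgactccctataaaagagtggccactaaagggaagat
Mmp7, chr9:7691990-7692089, plus strand: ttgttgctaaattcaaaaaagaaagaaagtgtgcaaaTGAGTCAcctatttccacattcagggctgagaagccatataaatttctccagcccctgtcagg
Plaur, chr7:24462383-24462482, plus strand: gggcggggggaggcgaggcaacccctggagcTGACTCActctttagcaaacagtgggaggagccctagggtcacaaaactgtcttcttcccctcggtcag

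The first base of the letters lies 44 bases before the start in Mmp12, 46 in Mmp3, 63 in both Mmp10 and Mmp7, and 69 in Plaur. A match describes the sequence only, and binding was not measured. The remaining match, in Col6a1, is not shown, since its window overlaps an annotated exon.

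Mmp10 (stromelysin-2, which cuts proteoglycans and activates other MMPs) had 0 reads in all 8 controls. In IRI it had 4, 2, 1 and 1 reads, or 0.524, 0.266, 0.115 and 0.114 CPM. Rhabdomyolysis mice reached 44.2, 68.4, 65.6 and 60.9 CPM and cisplatin mice 7.24, 7.67, 6.03 and 9.30. The 3 injured groups did not overlap each other. Against 3 reads over the 4 matched controls, the IRI mean was at least 2.49-fold higher. After rhabdomyolysis it was at least 538-fold higher, and after cisplatin at least 68.1-fold higher. The log2 differences depend on the added 1 CPM, at 0.32 (limma adjusted p 0.0725, not called), 5.91 (SE 0.16, limma adjusted p 3.8e-18) and 3.08 (limma adjusted p 1.31e-13). With 0.1 CPM added, IRI was called too (1.68).

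Mmp3, stromelysin-1, is a close relative of Mmp10, with 3.76% of its 75-base stretches found in Mmp10. It lay at 0 to 0.329 CPM in the 8 controls, with a median of 0. IRI mice had 2.75, 2.13, 1.72 and 2.52 CPM, rhabdomyolysis mice 10.97, 4.04, 11.97 and 5.11 and cisplatin mice 2.57, 5.15, 2.46 and 1.26. Injured mice and controls did not overlap, and rhabdomyolysis mice exceeded IRI mice. Each control range held 2 reads (1 each in controls 1 and 4, and both in control 5), so the ratios of summed reads were 33.2 (95% counting interval 8.87 to 279) in IRI, 111 (95% counting interval 30.4 to 918) after rhabdomyolysis and 38.7 (95% counting interval 10.4 to 323) after cisplatin. Without control 4 the fold of mean CPM in IRI moved from 32.8 to 50.9, and without control 5 the other 2 ratios have a control count of 0. The intervals cover counting error only, and limma gave log2 differences of 1.61, 2.95 and 1.75 (SE 0.28 each; limma adjusted p 2.31e-05, 1.41e-09 and 5.06e-06).

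Mmp7, matrilysin, an epithelial MMP, measured 0 to 0.422 CPM in the 8 controls, with a median of 0. It was 2.36, 4.26, 2.41 and 6.52 CPM in IRI and 8.41, 4.93, 4.85 and 9.76 after rhabdomyolysis, but 0, 1.01, 0.335 and 0.387 after cisplatin. IRI and rhabdomyolysis mice lay above all controls, while 1 cisplatin mouse was at 0 like most controls. The ratio of summed reads was 38.3 (95% counting interval 12.8 to 188) in IRI (3 control reads), 186 (95% counting interval 33.2 to 7382) after rhabdomyolysis (1 control read) and 12.2 (95% counting interval 1.91 to 509) after cisplatin. All 3 reads of controls 1 to 4 came from control 2 and the 1 read of controls 5 to 8 from control 6, so each ratio rests on 1 control mouse, and without it the control count is 0. Cisplatin mouse 2 held 10 of the 17 cisplatin reads. Limma called IRI and rhabdomyolysis (2.08 and 2.89, SE 0.26 each, adjusted p 3.26e-07 and 6.49e-10) but not cisplatin (0.42, adjusted p 0.125), which was called with 0.1 CPM added or without cisplatin mouse 1 (1.62 and 0.58). Mmp8 and Mmp9, the neutrophil collagenase and gelatinase B, rose in all 3 injuries, by 0.84, 1.14 and 1.33, and 1.25, 1.44 and 1.33 on the log2 scale. Neutrophil markers without these genes summed to 2.82 to 5.11 CPM in controls and 13.6 to 49.1 in injured mice, and their part in the rise was not tested. Mmp12, the macrophage metalloelastase, lay at 1.13 to 2.96 CPM in the 8 controls, with a median of 2.04, and cisplatin mice had 10.04, 13.4, 11.95 and 6.49 CPM, above all controls and all other injured mice. Its log2 differences were 0.89, 0.60 and 1.78, and all were called. Mmp14, the membrane-bound activator of proMMP-2, rose by 1.64, 1.85 and 1.72, and Mmp11 fell by 0.61, 0.53 and 0.58.

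The ADAMTS family, secreted proteases with thrombospondin repeats, counted 7 higher and 0 lower in IRI of 9, 7 and 2 after rhabdomyolysis, and 6 and 2 after cisplatin. Adamts4, an aggrecanase that cuts versican and aggrecan, lay at 0 to 0.563 CPM in the 8 controls, with a median of 0.163. IRI mice had 4.46, 6.26, 2.64 and 6.18 CPM, rhabdomyolysis mice 33.6, 16.3, 21.6 and 15.1 and cisplatin mice 20.1, 38.8, 24.7 and 12.9. All injured mice exceeded all controls, and both other injured groups exceeded IRI. The means rose 15.7-fold, 118-fold and 131-fold, with log2 differences of 2.14, 4.19 and 4.31 (SE 0.28 each; limma adjusted p 6.86e-07, 5.96e-12 and 6.7e-12). These folds rest on few control reads, 9 in controls 1 to 4 and 5 in controls 5 to 8. Adamts1, which also cuts versican, ran at 15.4 to 25.9 CPM in the 8 controls, with a median of 19.9. It was 132, 127, 110.5 and 152 CPM in IRI, 371, 365, 302 and 352 after rhabdomyolysis and 194, 250.3, 241 and 173 after cisplatin. The 4 groups stood apart in the order controls, IRI, cisplatin and rhabdomyolysis, with log2 differences of 2.68, 3.91 and 3.20 (SE 0.15 each; limma adjusted p 2.79e-12, 1.26e-15 and 4.24e-14). Adamtsl4, a family member without a protease domain that binds fibrillin-1, measured 0.845 to 2.81 CPM in the 8 controls, with a median of 1.97. It was 6.16, 6.79, 7.58 and 7.09 CPM in IRI, 19.7, 13.9, 13.9 and 14.8 after rhabdomyolysis and 19.03, 31.5, 26.9 and 20.2 after cisplatin. No injured mouse overlapped a control, with log2 differences of 1.52, 2.35 and 2.95 (SE 0.19 each; limma adjusted p 5.08e-07, 1.9e-10 and 8.24e-12). Vcan, the versican cleaved by these proteases, was itself higher in each injury, by 0.98, 1.92 and 1.82, from a control range of 0 to 0.575 CPM. Adamts15 fell after rhabdomyolysis (-1.80) and cisplatin (-1.24).

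The 6 members below the level for testing were Col17a1, Col19a1, Col6a6, Col7a1, Col24a1 and Mmp24. Col6a6 lay at 1.48 to 3.37 CPM in the 8 controls, with a median of 2.12, against 0.262, 0.133, 0 and 0 CPM in IRI, 0, 0.197, 0.0950 and 0.114 after rhabdomyolysis and 0, 0, 0.112 and 0.0968 after cisplatin. Col7a1 measured 0 to 1.32 CPM in the 8 controls, with a median of 0.147, and 1.99, 2.86, 1.52 and 1.82 CPM after rhabdomyolysis. The controls of Col6a6 lay above all injured mice, and the rhabdomyolysis mice of Col7a1 lay above all controls.

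The injuries were then compared with each other. Rhabdomyolysis and cisplatin lie in 1 identifier range and could be compared directly, although their times differ (24 h and 72 h), so that injury and time cannot be told apart. Of 65 members 26 were higher after rhabdomyolysis, against 21.4% of all genes, and 14 were higher after cisplatin, against 32.7%. The members' median log2 difference was 0.40, and that of all genes -0.09. Mmp10 and Mmp7 led the rhabdomyolysis side (log2 difference 2.82, SE 0.16, limma adjusted p 4.02e-12, and log2 difference 2.47, SE 0.26, limma adjusted p 5.57e-08). Tnc (1.94), Col12a1 (1.48), Col5a3 (1.45) and Col5a1 (1.44) were on that side too. On the cisplatin side stood Plat (log2 difference -2.06, SE 0.24, limma adjusted p 2.99e-07) and Serpine2 (log2 difference -1.34, SE 0.20, limma adjusted p 6.91e-06). Mmp12 (-1.18), Col18a1 (-1.05), Col13a1 (-1.03) and Cyr61 (-0.81) were on that side too.

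**Figure D3:**
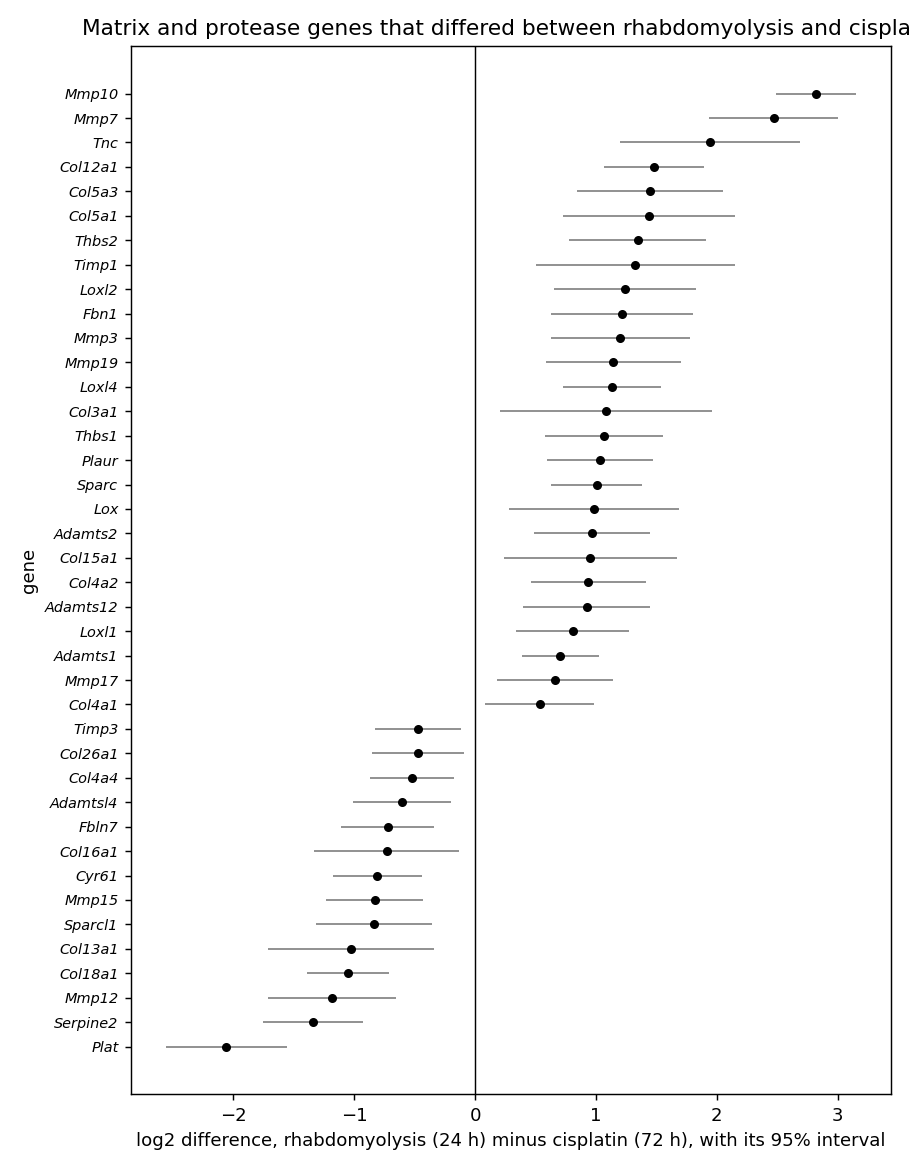
Log2 difference between rhabdomyolysis and cisplatin, on the log2(CPM + 1) scale, for the 40 matrix and protease genes that limma called; points are estimates from 4 mice a group, bars are 95% intervals and values to the right of 0 are higher after rhabdomyolysis. Mmp10 (2.82) and Mmp7 (2.47) lie farthest to the rhabdomyolysis side and Plat (-2.06) farthest to the cisplatin side.

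IRI lies in the other range, so its difference from controls was compared with that of the other injuries. Effects were compared with their sign, so a higher effect can also be a smaller fall. Relative to rhabdomyolysis, 6 members had the higher effect in IRI (28.6% of all genes) and 20 the lower effect (23.4%). Of the 6, Adamts15, Adamts16, Col26a1, Col4a4 and Timp3 had fallen after rhabdomyolysis and fell less or were not called in IRI. Only Col18a1 rose more in IRI (2.06 against 1.46). Relative to cisplatin 3 were higher in IRI (13.5% of all genes) and 10 lower (16.8%). The members' median differences were -0.58 and -0.12, and those of all genes 0.02 and -0.05. The lower effects included Mmp10 (log2 difference -5.59, SE 0.23, limma adjusted p 6.54e-14), Plaur (log2 difference -2.52, SE 0.30, limma adjusted p 8.55e-07), Ctgf (log2 difference -2.36, SE 0.41, limma adjusted p 8.36e-05) and Timp1 (log2 difference -2.28, SE 0.56, limma adjusted p 0.00194) against rhabdomyolysis. Against cisplatin they included Plat (log2 difference -2.65, SE 0.34, limma adjusted p 4.77e-06), Serpine2 (log2 difference -2.61, SE 0.28, limma adjusted p 3.57e-07) and Adamts4 (log2 difference -2.17, SE 0.40, limma adjusted p 0.000284). Under edgeR on the recovered reads 3 of these were not called: Mmp10 (-7.84) and Timp1 (-2.63) against rhabdomyolysis, and Adamts4 (-3.00) against cisplatin. Mmp10 had 0 reads in every control, so edgeR had no control level from which to take either effect. Its reads were 1 to 4 in IRI mice and 468 to 694 in rhabdomyolysis mice. Plaur, Plat and Serpine2 had a lower effect in IRI than in cisplatin. Without controls 2 and 3 the counts were 2 higher and 32 lower against rhabdomyolysis, and 1 higher and 19 lower against cisplatin. The 6 with the higher effect against rhabdomyolysis became 3 without any single one of control 2, 3 or 6, IRI mouse 1 or rhabdomyolysis mouse 2, and 2 without rhabdomyolysis mouse 3.

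The mice of a group differed among themselves, and many members shared the order. Of the 55 members that rose after rhabdomyolysis, 36 were lowest in the fourth mouse (65.5%, against 35.1% of all genes that rose) and 35 highest in the first (63.6%, against 34.0%). Of the 47 that rose after cisplatin, 40 were lowest in the fourth mouse (85.1%, against 46.3%) and 35 highest in the second (74.5%, against 47.6%). These orders were noticed in the same data. Without the fourth rhabdomyolysis mouse 55 members rose and 10 fell against controls, and without the fourth cisplatin mouse 47 and 9. Between these injuries the counts were 30 higher and 13 lower without the former and 21 and 15 without the latter. The fibrillar collagens summed to 919.7, 519, 837 and 243 CPM in the 4 rhabdomyolysis mice and 339, 538, 295 and 163 in the cisplatin mice. IRI mice were closer together, at 379.7, 378, 371 and 277, and controls spanned 48.3 to 129, with controls 3 and 2 the lowest.

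Markers of other cells in the table, like every gene there, had to differ at least 1.5-fold from controls in some injury. That they moved is therefore no result, and markers outside the table are not seen. Their direction and the order of the mice are given. The 3 fibroblast markers of 9 in the table (Pdgfra, Pdgfrb and Postn) rose in IRI and rhabdomyolysis, and 2 rose in cisplatin. They summed to 30.97 to 73.6 CPM in controls, 114, 96.8, 74.9 and 83.97 in IRI, 206, 142, 180.3 and 116 after rhabdomyolysis and 126, 146, 86.2 and 64.4 after cisplatin, and the fourth mouse was the lowest of the last 2 groups. Macrophage markers (7 of 8 in the table) ran at 85.4 to 121 CPM in controls. They were 142, 102, 115 and 94.1 in IRI, which overlaps the controls, 243, 153, 238 and 102 after rhabdomyolysis and 239, 267, 225 and 189 after cisplatin, lowest again in the fourth mice, of which the rhabdomyolysis one lay inside the control range. In IRI 3 of the 7 rose and 1 fell, and after each of the other injuries 6 rose and 1 fell. The 1 that fell was Csf1r, the receptor for macrophage growth factor CSF1, at -1.54, -0.95 and -0.85 on the log2 scale. Of the 4 endothelial markers in the table (of 9), 3 rose in IRI and all 4 after rhabdomyolysis and cisplatin. They summed to 174 to 360.2 CPM in controls 1 to 4 and 379, 371, 341 and 381 in IRI, and to 242 to 289 in controls 5 to 8, 857, 601, 633 and 689.7 after rhabdomyolysis and 496, 537, 509 and 381 after cisplatin. The fourth cisplatin mouse was again the lowest of its group, but after rhabdomyolysis the second mouse was. Smooth muscle markers (3 of 5) rose in each injury, and the 8 proximal tubule markers fell (7 in IRI). The 2 loop of Henle markers in the table (of 4) fell in each injury, with median log2 differences of -4.46, -4.26 and -3.21. All 7 injured tubule markers rose in each, with medians of 3.54, 4.74 and 3.83. The part of these cells in the matrix values was not tested.

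**Figure D4:**
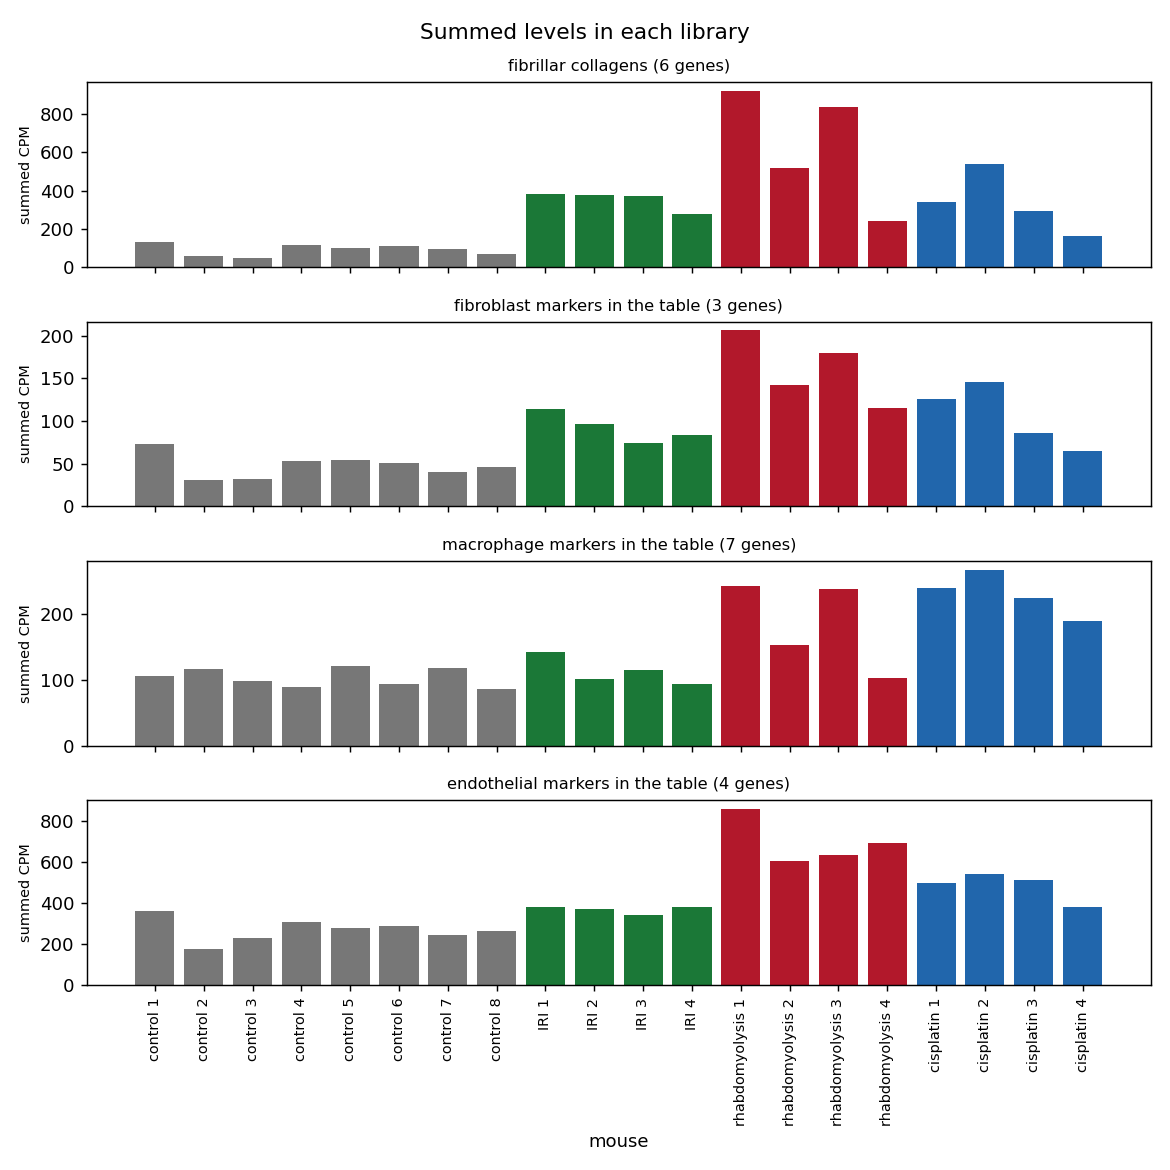
Summed CPM of 6 fibrillar collagens and of the fibroblast, macrophage and endothelial markers in the table, each bar 1 mouse, coloured by group, on linear axes that start at 0. The fourth rhabdomyolysis and cisplatin mice have the lowest fibrillar collagen sums of their groups, 243 and 163 CPM, and also the lowest fibroblast and macrophage sums.

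Other matrix and protease genes, listed apart from the set, were in the table in 41 cases of 66. In IRI 30 rose and 7 fell, after rhabdomyolysis 35 and 6, and after cisplatin 28 and 6. Of all genes 40.6% rose and 40.1% fell in IRI, 48.8% and 46.5% after rhabdomyolysis and 47.8% and 44.0% after cisplatin. The list's median log2 differences were 0.77, 1.21 and 1.01, beside 0.08, 0.31 and 0.30 over all genes. Spp1, for the secreted phosphoprotein osteopontin, changed most among those that rose in IRI, with log2 differences of 4.42, 4.67 and 3.75 (SE 0.16 each; limma adjusted p 3.3e-15, 2.13e-16 and 8.37e-15). The protease Adam8 rose by 2.72, 3.85 and 4.91, and Cd44, a receptor of hyaluronan, by 2.13, 3.33 and 4.16. The brush border metalloproteinase subunits Mep1a and Mep1b and the plasmin inhibitor Serpinf2 fell, Mep1b by log2 differences of -5.46, -3.64 and -2.96 (SE 0.40 each; limma adjusted p 9.96e-11, 1.52e-08 and 5.41e-07). The log2 differences were -1.59, -2.30 and -1.30 for Mep1a, and -1.59, -3.09 and -2.75 for Serpinf2. Of 22 listed regulators (TGF-beta ligands, receptors and Smads, integrins, and the transcription regulators Yap1, Wwtr1, Ankrd1 and Runx1) 19 were in the table. In IRI 17 were higher and 0 lower, after rhabdomyolysis 17 and 2 and after cisplatin 17 and 1, beside the same shares of all genes. Their medians were 0.97, 1.66 and 1.29. Runx1, a transcription factor, rose by 1.61, 4.44 and 2.75 (SE 0.23 each; limma adjusted p 2.16e-06, 1.02e-13 and 3.84e-10) on the log2 scale. Ankrd1, a target of the mechanosensitive factor YAP, rose by 1.64, 3.91 and 3.29. Itgb4, the laminin-binding integrin subunit of hemidesmosomes, rose by 0.97, 2.26 and 3.37. Itgb6, the subunit of an epithelial integrin that activates latent TGF-beta, went up in IRI (0.66) and cisplatin (1.11) but down after rhabdomyolysis (-0.70), and Itgb8 fell after rhabdomyolysis (-1.49) and cisplatin (-0.87).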

How the data were processed

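Poly-A RNA of kidney cortex from 20 mice was sequenced as 150-base read pairs after a stranded library kit, per the labels' protocols. The submitters' processing notes name FastQC, Bowtie2 2.1.0, RSEM 1.2.15, edgeR and the builds GRCm38 and mm10, without role or order, and whether counting used strand is not given in the sources used here. The deposited values are CPM, counts per 1000000 of an effective library size that no source used here defines. In each library all values are whole multiples of 1 step within 0.001, so whole reads were recovered for 100% of values, and edgeR 4.0.16 on them was an alternative. The deposited table holds 6025 genes, all past 1.5-fold in at least 1 injury and over 1 CPM in at least 4 libraries. Table reads were 3.48 to 5.40 M of effective sizes of 6.07 to 10.6 M, and the table held 55.3% to 70.6% of the size in controls and 42.1% to 48.3% in injured mice.

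Groups follow the labels, and limma 3.58.1 (empirical Bayes with trend, R 4.3.3) was fitted to log2(CPM + 1) of genes whose mean reached 1 CPM, with 5 cells (controls 1 to 4, controls 5 to 8 and the 3 injuries), and p-values were adjusted over all 5672 genes. Members were the 71 symbols matched by name. Members and lists were chosen with earlier results of these data known. Values in every mouse are given for up to 3 called members of each role class with the largest change and no overlap with matched controls, and for up to 8 with the largest called difference between injuries; other members and 2 ratios were named after their values were seen. Of the lists of other matrix genes and of regulators the up to 3 largest changes each way are named; cell markers are given as counts and sums. One member counted among the 71 is not reported here by name. The fit was tested on simulated data. Gene positions are from GENCODE vM21 (GRCm38) and promoters from RefSeq (GRCm38.p6); Cyr61 and Ctgf were matched as Ccn1 and Ccn2. No libraries agreed within sampling noise. Replicate numbers are shared by controls 1 to 4 and IRI, and by rhabdomyolysis and cisplatin. Alternatives were 0.1 CPM added, other minimum means (none or 5 CPM), 75th percentile or quantile scaling, edgeR, all 8 controls, single libraries left out, controls 2 and 3 left out (added after seeing the data) and a replicate block.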

Additional observations from a re-analysis of the deposited data

Results flagged for a closer look

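In 6 of 100 groups of libraries examined (25 matrix genes in 4 groups), 1 mouse stood apart from the rest by Dixon's criterion at 95%, and chance gives about 5. The gap to the nearest mouse, divided by the whole range of its group, was 0.965 for Ctgf in IRI mouse 4 (100.4 CPM), 0.847 for Adamtsl4 in rhabdomyolysis mouse 1 (19.7 CPM) and 0.837 for Col13a1 in rhabdomyolysis mouse 4 (22.5 CPM). Among controls it was 0.644 for Serpine2 in control 1 (13.3 CPM), 0.620 for Mmp7 in control 2 (0.422 CPM) and 0.563 for Mmp3 in control 5 (0.329 CPM).

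Limma tests of the difference between injuries covered the 65 tested members. Between rhabdomyolysis and cisplatin 26 members were higher and 14 lower, against 21.4% and 32.7% of all genes. Taken with its sign, the IRI effect was higher than that of rhabdomyolysis in 6 and lower in 20 (28.6% and 23.4% of all genes). It was higher than that of cisplatin in 3 and lower in 10 (13.5% and 16.8%). For the 8 members with the largest called differences, each given for the comparison in which its own difference was largest, the log2 differences were -5.59 for Mmp10, -2.52 for Plaur, -2.36 for Ctgf and -2.28 for Timp1 between the IRI and rhabdomyolysis effects. They were -2.65 for Plat, -2.61 for Serpine2 and -2.17 for Adamts4 between the IRI and cisplatin effects, and 2.47 for Mmp7 between rhabdomyolysis and cisplatin. Mmp10 differed by more than these in both of the latter comparisons, at -2.77 and 2.82. Times differ for cisplatin (72 h against 24 h), so injury and time cannot be told apart there.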

How the results depend on the processing

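The counts of members called against controls stayed within 1.5 times their value in every alternative run, except that a minimum mean of 5 CPM, which tests fewer genes, gave 6 lower after rhabdomyolysis and 5 after cisplatin. That minimum gave 1 higher IRI effect against cisplatin. Scaling by the 75th percentile gave 3 higher IRI effects against rhabdomyolysis. Leaving out controls 2 and 3, added after seeing the data, gave 2 higher and 32 lower IRI effects against rhabdomyolysis and 1 and 19 against cisplatin, and the cause was not tested. The median of all genes was 0.08, 0.31 and 0.30 in IRI, rhabdomyolysis and cisplatin as deposited, 0.19, 0.44 and 0.38 under the 75th percentile and 0.00, 0.14 and 0.03 under quantile normalization.

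With 1 mouse left out at a time, members higher and lower numbered 42 to 49 and 7 in IRI, 48 to 55 and 10 after rhabdomyolysis, 44 to 47 and 8 to 10 after cisplatin, and 36 to 42 and 6 to 7 in all 3. Between rhabdomyolysis and cisplatin they were 21 to 30 and 10 to 15. IRI effects were higher in 2 to 6 and lower in 15 to 27 against rhabdomyolysis, and 2 to 4 and 10 to 15 against cisplatin. The low of 2 came without rhabdomyolysis mouse 3, and 3 without control 2, 3 or 6, IRI mouse 1 or rhabdomyolysis mouse 2.

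Single genes were recomputed only for the members picked by the naming rule, not for all 65, and among these results 3 changed sign: Timp3 under quantile normalization in IRI (0.29) and cisplatin (0.10), and Ctgf in IRI without controls 2 and 3 (-0.0102). Mmp10 in IRI was called by edgeR (4.12) and with all 8 controls (0.32), as was Mmp7 in cisplatin by edgeR (3.15). Over all members edgeR called 47 higher and 7 lower in IRI, 55 and 10 after rhabdomyolysis and 48 and 9 after cisplatin.

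A replicate block on the numbers shared by controls 1 to 4 and IRI gave 47 higher and 7 lower, and on those shared by rhabdomyolysis and cisplatin 26 higher and 13 lower; fitted without the block to the same 8 libraries the counts were 47 and 7, and 25 and 11. Same-numbered libraries correlated at 0.06, -0.11, 0.18, -0.05 and -0.10, -0.21, 0.03, 0.32, and not every library correlated best with its own number, so the numbers were not read as pairs. No paired analysis was possible for the other comparisons because controls 5 to 8, which enter each of them, share no number with the injuries. Low depth limits Mmp10, Mmp7, Mmp3 and Mmp8, which had 3 or fewer reads in the matched controls.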
